A study of Rattus norvegicus with 6 samples.

Results

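The interleukin 6 (IL-6) family of cytokines, their receptors and the feedback inhibitor of their signalling were followed in cultured rat cardiac fibroblasts. The genes were chosen by name: the ligand genes Il6, Lif, Il11 and Clcf1, the receptor genes Il6r, Il11ra1, Il6st, Lifr and Osmr, and the inhibitor gene Socs3. Of these 10 genes, 9 had a row under that symbol among the 30560 genes of the deposited table, and Clcf1 was not analysed here. The cells were primary fibroblasts from the ventricles of newborn SD rats, 1 to 2 days old, enriched by letting them attach before cardiomyocytes were poured off, and kept without serum overnight. They were transfected with 50 nM of either miR-142-3p antagomiR, an antisense oligonucleotide that blocks the mature microRNA, or the control oligonucleotide labelled NC. Both groups thus went through starvation and lipid transfection, and no untransfected group was analysed here. Each group had 3 libraries of polyadenylated RNA. Whether these came from separate preparations of cells is not in the labels, so p-values here reflect the spread of the libraries alone, which may be technical.

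Cytokines of this family share the signal-transducing receptor gp130, the product of Il6st. IL-6 and IL-11 first bind their own receptors, encoded by Il6r and Il11ra1, and then a pair of gp130 chains, whereas leukaemia inhibitory factor (Lif) joins gp130 to the receptor encoded by Lifr, and oncostatin M joins gp130 to that encoded by Osmr. The assembled receptors activate JAK kinases and the transcription factor STAT3, which in turn induces SOCS3, a protein that binds gp130 and JAK and shuts the signal off. In the heart, fibroblasts make and respond to several of these cytokines after injury, and IL-6 and IL-11 have been studied as drivers of inflammation and fibrosis.

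The antagomiR was directed against the following mature microRNA, shown because the transfected oligonucleotide is the only designed difference between the groups. The sequence of the microRNA is from RefSeq (GRCr8, chr10:73055155-73055177, plus strand), and the capitals mark the seed, bases 2 to 8, which pairs with target transcripts.
rno-miR-142-3p: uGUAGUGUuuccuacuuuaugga
Il6 and Il6st have been reported as targets of this microRNA. Their 3' ends were not examined here, and polyadenylated RNA does not show the level of the mature microRNA.

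Library totals recovered from the deposited values lay between 19472409 and 24622667 fragments. All 12 fibroblast markers checked, among them Col1a1 and Pdgfra, were above the filter. Their summed level was 15500 to 15822 FPKM (fragments scaled by transcript length and by library total) in NC and 14836 to 15253 FPKM with the antagomiR, but single markers moved both ways, with 6 called higher and 3 lower. Leukocyte transcripts were present and moved with the treatment. The summed level of 15 leukocyte markers was 140, 205 and 736 FPKM in NC replicates 1, 2 and 3, and 994 to 1103 FPKM with the antagomiR. Of these markers 7 of 12 tested were called higher, where 17.5% of all tested genes were. Without NC replicate 3 all 12 were, in a fit that called 3185 of all 12024 genes higher, while the T cell gene Cd3e and the neutrophil gene S100a9 were at 0 in every library. Markers of other cells also differed between the groups. Summed cardiomyocyte markers were at 422 to 468 FPKM in NC and 346 to 409 FPKM with the antagomiR, most of it Tnnt2. Single cardiomyocyte markers moved both ways, with 3 of 7 tested called higher (17.5% of all tested genes) and 1, Tnnt2, lower (9.21%). Summed endothelial markers were at 2.91 to 3.61 FPKM in NC and 4.60 to 5.26 FPKM with the antagomiR, most of it Tek and Egfl7. The other 5 of these 7 genes were under 1 FPKM in all libraries, with Emcn at 0. Of the 2 tested 1, Tek, was called higher (17.5% of all tested genes), and Egfl7 was not called. Smooth muscle and pericyte markers summed to 399 to 433 FPKM in NC and 295 to 302 FPKM with the antagomiR, mostly Pdgfrb and Mcam. Among them 4 of 6 tested were called lower, where 9.21% of all tested genes were, and Pdgfrb and Des were not called. Kcnj8 and Abcc9, under the filter, had all antagomiR libraries above all NC libraries, and Rgs5 overlapped. Epicardial and mesothelial markers summed to 23.1 to 26.0 FPKM in NC and 17.1 to 19.0 FPKM with the antagomiR. Among these 3 of 4 tested were called lower (9.21%). Wt1 went the other way without overlap (log2 fold change 0.27) and was not called. The part of these cells in the results below was not tested. In such mixed cultures, fewer cells of a type and less RNA per cell cannot be told apart.

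In all, 5 genes were called higher after the antagomiR: the ligand Il6, the signalling receptors Osmr, Lifr and Il6st, and the inhibitor Socs3. The ligand Lif and the ligand-binding receptors Il6r and Il11ra1 did not pass the test, and Il11 was near 0 throughout. Of the 10 genes, 8 reached a mean of 1 FPKM and were tested by limma on log2(FPKM + 1), and 5 of these were called higher at an adjusted p under 0.05, where 17.5% of all 12024 tested genes were. None was called lower, where 9.21% of all tested genes were. Genes called higher were 65.6% of all calls, a share that was 51.4% with median-ratio scaling and 43.1% with quantile normalization, under both of which the same count of 5 family genes was higher. The number of family genes lower was also 0 at an unadjusted p under 0.05 (13.3% of tested genes) and by limma voom on recovered fragments (9.71%). By voom 5 were again called higher (19.5%). Il6, Osmr and Socs3 were higher by at least 1 on the log2 scale, as were 3.83% of tested genes. For 6 of the 8 all antagomiR libraries lay above all NC libraries, as for 29.2% of tested genes (44.6% had no overlap in either direction). The median log2 fold change of the 8 was 0.67, beside 0.06 over all tested genes. Il6 had an NC mean under 1 FPKM and passed the filter only through its antagomiR values, so these counts describe the genes and do not support a direction of the family.

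**Figure D1:**
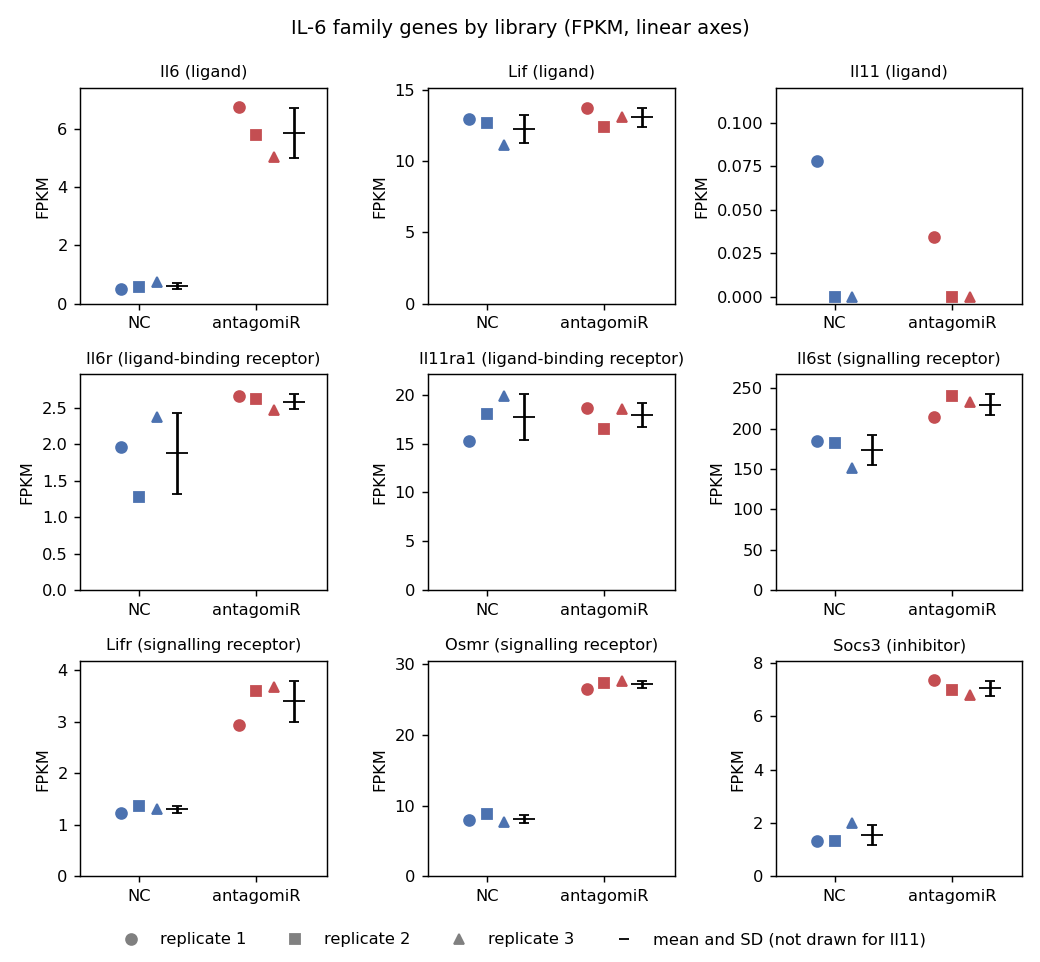
FPKM of the 9 IL-6 family genes in each library (linear axes, NC in blue, antagomiR in red, marker shape for the replicate, black bar for mean and SD with n = 3). Il6, Il6r, Il6st, Lifr, Osmr and Socs3 show no overlap between groups, Lif and Il11ra1 overlap, and Il11 has a value above 0 in 1 library of each group.

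Il6 encodes the founding cytokine of the family. Its level was 0.508, 0.565 and 0.734 FPKM in NC replicates 1 to 3, and 6.78, 5.81 and 5.06 FPKM in antagomiR replicates 1 to 3. Every antagomiR library lay above every NC library, and NC replicate 3 was the highest of the controls. The values rest on 13, 18 and 19 fragments in NC and on 198, 188 and 152 fragments with the antagomiR. The mean was 9.77 times higher with the antagomiR, with a log2 fold change of 2.10 and a standard error (SE) of 0.12. Il6 passed the filter only through its antagomiR values, so its p is given from the fit without a filter (limma adjusted p = 0.000428). The log2(FPKM + 1) scale understates changes of genes at this level, and on the voom scale the log2 fold change was 3.26 (SE 0.27). Without NC replicate 3, the control library with most leukocyte RNA, the log2 fold change of log2(FPKM + 1) was 2.16. The part of leukocyte RNA in the rise of Il6 was not tested.

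Lif, a ligand of the same receptor system, was the most abundant of the ligand genes Il6, Lif and Il11 in both groups. It did not differ detectably. It was at 13.0, 12.7 and 11.1 FPKM in NC and at 13.8, 12.4 and 13.1 FPKM with the antagomiR, so the groups overlapped. Its log2 fold change was 0.09, with a 95% interval from -0.09 to 0.26 (limma adjusted p = 0.429). The interval leaves room for a small change in either direction. Lif rested on 822 to 1152 fragments per library, so depth was not what limited this comparison.

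Il11 encodes a cytokine that fibroblasts can secrete in culture. It had 2 fragments in NC replicate 1, 1 fragment in antagomiR replicate 1 and 0 in the other 4 libraries, taking the smallest whole numbers that fit the values. These are 0.0781 and 0.0342 FPKM. A level of 3 fragments on this gene corresponds to 0.0931 to 0.118 FPKM, a limit set by counting error alone. All 6 libraries were under it, so no fold is given and a difference in Il11 was not detectable in these values. The annotated span of Il11 also lies within that of Tmem238, which was listed at up to 2.76 FPKM. With no strand setting stated, the few fragments cannot be assigned to either gene with certainty. Whether fragments of Il11 went uncounted or were counted for Tmem238 was not tested. The low values thus do not show that the Il11 transcript was absent.

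The upstream sequences of Il6 and Il11 are printed because Il6 was called higher and Il11 had almost no counted fragments. RefSeq promoter windows were matched for 7 of the 10 genes, but only those of Il6 and Il11 begin at the outer end of the annotated gene, and for the other 5 the start used lies 241 to 11602 bp inside it. Shown are the 250 bases before the start, 5′ to 3′ in the direction of the gene, from GRCr8 (Il6, chr4:5894576-5894825, minus strand, and Il11, chr1:78098372-78098621, plus strand). Capitals mark matches to any of 4 motifs searched on both strands: NF-kB as GGGANNNNCC, STAT as TTCNNNGAA, the TATA box as TATAAA and AP-1 as TGANTCA.
Il6: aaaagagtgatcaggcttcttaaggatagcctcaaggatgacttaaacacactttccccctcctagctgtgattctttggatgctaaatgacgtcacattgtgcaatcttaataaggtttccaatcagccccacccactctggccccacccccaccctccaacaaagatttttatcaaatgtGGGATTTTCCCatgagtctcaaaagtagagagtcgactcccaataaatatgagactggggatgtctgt
Il11: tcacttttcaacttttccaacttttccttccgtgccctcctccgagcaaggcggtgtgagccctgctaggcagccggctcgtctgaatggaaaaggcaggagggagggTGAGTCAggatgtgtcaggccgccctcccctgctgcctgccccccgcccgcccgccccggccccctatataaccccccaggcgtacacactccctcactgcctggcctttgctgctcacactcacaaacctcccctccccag
The Il6 window held the NF-kB motif as GGGATTTTCC, 68 to 59 bases before the start, and again on the other strand shifted by a single base, so the matches overlap. Over all 33469 windows of this length, 16.4% held that motif. The Il11 window held the AP-1 motif as TGAGTCA, 142 to 136 bases before the start, a palindrome that matches on both strands, where 6.34% of windows held it. No letters of the STAT motif (7.67% of windows) or of the TATA box as spelled here (12.9%) were found in either window. A match is a stretch of letters and shows no binding.

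Il6r and Il11ra1 encode the chains that bind IL-6 and IL-11 and have little signalling activity of their own. Il6r was at 1.97, 1.28 and 2.38 FPKM in NC and at 2.67, 2.62 and 2.47 FPKM with the antagomiR. The antagomiR libraries were all above the NC libraries, by a narrow margin over NC replicate 3 and a wide one over NC replicate 2. The log2 fold change was 0.34 with a 95% interval from -0.01 to 0.68, and it did not pass the test (limma adjusted p = 0.138). Without NC replicate 3 it did, at 0.46 (adjusted p = 0.0229, and 0.0747 to 0.369 in the other fits run). Without NC replicate 2 the log2 fold change was 0.18, and with quantile normalization 0.19. Il6r is also expressed by leukocytes, whose markers were highest among the controls in NC replicate 3, and their part in the Il6r values was not tested. Il11ra1 was at 15.3, 18.0 and 19.9 FPKM in NC and at 18.7, 16.5 and 18.5 FPKM with the antagomiR, with the antagomiR values inside the NC range. Its log2 fold change was 0.02, with a 95% interval from -0.22 to 0.26 (limma adjusted p = 0.918), and its sign changed between fits. The IL-11 receptor chain was thus well measured, on 496 to 729 fragments a library, beside a ligand with counted fragments under the limit of 3.

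Osmr, the oncostatin M receptor chain, had the largest rise among the receptors. It went from 7.99, 8.82 and 7.66 FPKM in NC to 26.5, 27.3 and 27.6 FPKM with the antagomiR. The replicates lay close together, and the gap between groups was far wider than either group's range. Means were 8.16 ± 0.599 and 27.1 ± 0.562 FPKM (SD, n = 3), a ratio of 3.33, with a log2 fold change of 1.62 (SE 0.06, limma adjusted p = 1.83e-05). Among the controls Osmr was lowest in NC replicate 3, which had the most leukocyte RNA of the 3, and its log2 fold change without that library was 1.58. The part of leukocyte RNA in the rise of Osmr was not tested.

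Lifr, the LIF receptor chain, lies next to Osmr on chromosome 2. In mRatBN7.2 Osmr spans 55907132 to 55961262 and Lifr 56250120 to 56286699, 288858 bp apart, with 0 other listed genes wholly between them. Lifr went from 1.22, 1.37 and 1.30 FPKM in NC to 2.94, 3.60 and 3.67 FPKM with the antagomiR, with no overlap. Its log2 fold change was 0.93 (SE 0.10, limma adjusted p = 0.00068), or 1.38 (SE 0.15) on the voom scale, where low levels are not damped. Thus the receptor chain for LIF rose while Lif itself did not pass the test, although the difference between these changes was not tested.

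Il6st, the shared chain gp130, was the most abundant of the family genes analysed by a wide margin and had the smallest change among those called. It was at 185, 183 and 152 FPKM in NC and at 215, 240 and 234 FPKM with the antagomiR. The groups did not overlap, and NC replicate 3 was the lowest library. The log2 fold change was 0.41 (SE 0.09, limma adjusted p = 0.0155). The call was lost without antagomiR replicate 2 (0.38, adjusted p = 0.0655) or antagomiR replicate 3 (0.40, adjusted p = 0.0669), and over all fits run the adjusted p ranged from 0.00418 to 0.0669.

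Socs3 encodes the feedback inhibitor that STAT3 induces. Its level was 1.33, 1.32 and 2.00 FPKM in NC and at 7.38, 6.98 and 6.81 FPKM with the antagomiR, with the highest control again NC replicate 3 and no overlap. The ratio of means was 4.55, and the log2 fold change 1.67 (SE 0.12, limma adjusted p = 0.000138), or 2.22 (SE 0.15) by voom. Without NC replicate 3 the log2 fold change of log2(FPKM + 1) was 1.79.

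**Figure D2:**
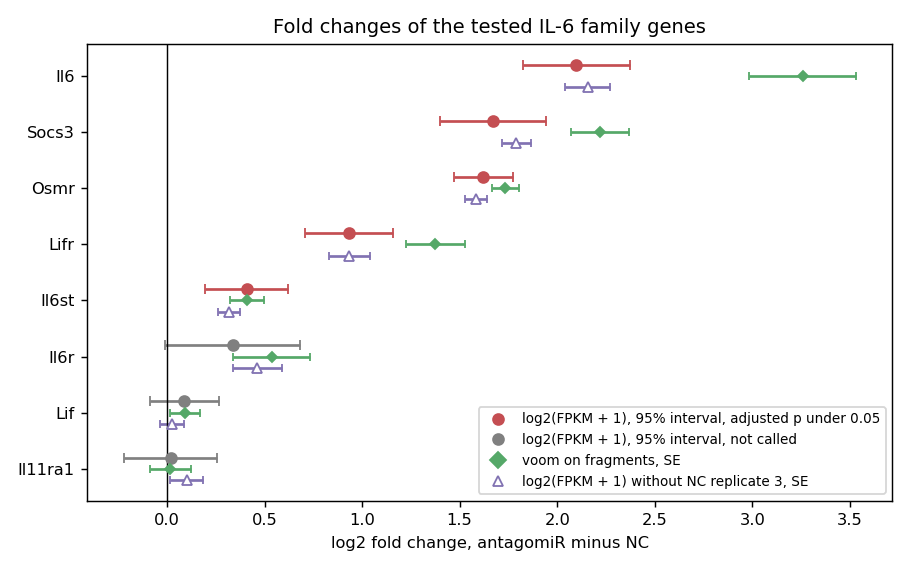
Log2 fold change, antagomiR minus NC, of the 8 tested IL-6 family genes: circles for log2(FPKM + 1) with 95% intervals (red if called), diamonds for voom on recovered fragments and triangles for log2(FPKM + 1) without NC replicate 3, both with SE. Il6 moves most between scales, from 2.10 to 3.26, and the interval of Il6r reaches -0.01.

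FPKM is scaled by gene length, so levels can also be ordered within a group. In NC the order was Il6st, Il11ra1, Lif, Osmr, Il6r, Socs3, Lifr, Il6 and Il11, from 173 ± 18.6 FPKM for Il6st down, and the neighbours Il6r, Socs3 and Lifr had overlapping ranges (means of 1.88, 1.55 and 1.30 FPKM). With the antagomiR the order was Il6st, Osmr, Il11ra1, Lif, Socs3, Il6, Lifr, Il6r and Il11, from 230 ± 13.2 FPKM down (SD, n = 3), and no neighbours overlapped. Osmr thus moved from below Il11ra1 and Lif to above them, and Il6 from below Lifr to above it.

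The shares of the ligand and receptor transcripts are given as a description, since parts of a sum depend on each other. Il6 made up 4.73% ± 1.28 of the summed FPKM of Il6, Lif and Il11 in NC and 30.9% ± 2.67 with the antagomiR, the remainder being almost wholly Lif. Among the 5 receptor genes, Osmr made up 4.04% ± 0.228 of the summed FPKM in NC and 9.68% ± 0.292 with the antagomiR, and Lifr 0.646% ± 0.0663 and 1.21% ± 0.0908. The share of Il6st was 85.5% ± 2.35 and 81.8% ± 0.96, although its own FPKM was higher, and that of Il11ra1 was 8.87% ± 1.86 and 6.40% ± 0.685 (SD, n = 3). The share of Il6r was 0.945% ± 0.349 in NC and 0.923% ± 0.0727 with the antagomiR, and overlapped. In an exact two-sided permutation test, 3 libraries against 3 can give no p below 0.1, so no share could pass, and for 6 of the 8 shares tested p was at that limit (0.133 after Benjamini-Hochberg adjustment).

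**Figure D3:**
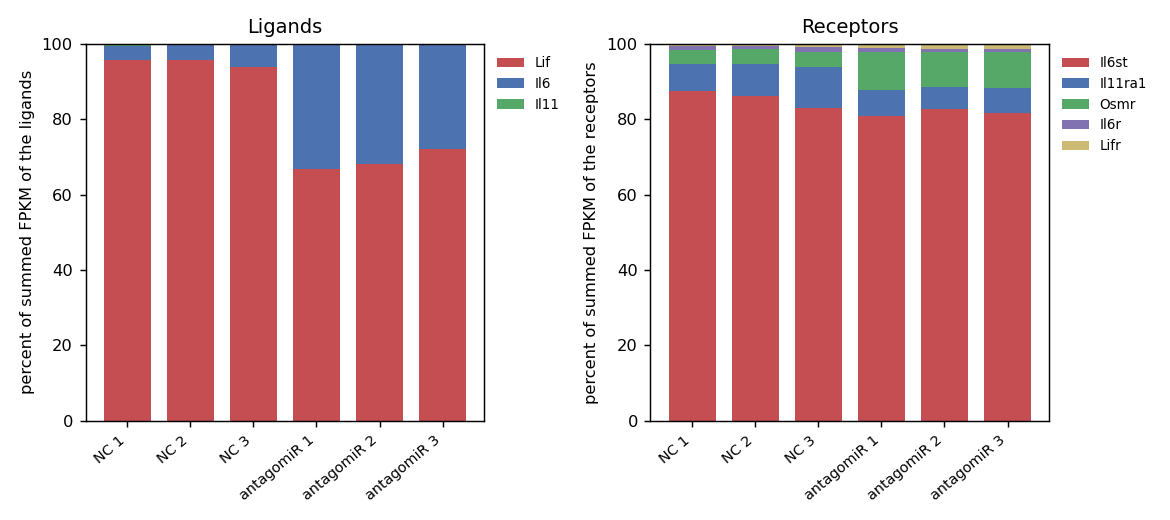
Share of each gene in the summed FPKM of the ligand genes (left) and of the receptor genes (right), as stacked bars per library in percent. The Il6 share is 3.75% to 6.18% in NC and 27.9% to 33.0% with the antagomiR, and the Osmr share 3.78% to 4.18% and 9.40% to 9.98%.

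The wider pathway was read from 6 lists of 67 further genes, of which 60 were tested. There 27 were called higher, where 17.5% of all tested genes were, and 3 lower, where 9.21% were. Their median log2 fold change was 0.24, beside 0.06 for all tested genes. The same shares, with 13.3% lower at an unadjusted p under 0.05 and 9.71% lower by voom, are the background of every list below. Hp, Il27ra and Socs1 passed the filter only through their antagomiR values, so the counts that include them are a description.

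Among the other ligands and their partners 1 of 5 tested rose and 1 fell, with a median of 0.06, counts too small to set apart from the 17.5% and 9.21% of all tested genes. Ebi3, the partner subunit of IL-27 and IL-35, was at 0.751, 0.781 and 5.37 FPKM in NC and at 14.8, 11.6 and 12.6 FPKM with the antagomiR (log2 fold change 2.36, SE 0.47, limma adjusted p = 0.0108). NC replicate 3 stood well above the other controls for Ebi3, as it did for the leukocyte markers, and their part in the rise was not tested. Cntf, ciliary neurotrophic factor, fell from 2.69 ± 0.242 to 1.47 ± 0.306 FPKM (SD, n = 3, limma adjusted p = 0.00982). Ctf1, cardiotrophin 1, had a log2 fold change of 0.06 and was not called. Osm, the ligand of the Osmr product, was at 0.307, 0.65 and 2.32 FPKM in NC and at 1.15, 1.21 and 0.689 FPKM with the antagomiR. The Osm groups overlapped, with the highest value in NC replicate 3, and Osm was not called. Its log2 fold change was 0.06, with a wide 95% interval from -0.72 to 0.83, on 11 to 84 fragments a library. That interval leaves room for a change of the ligand transcript in either direction beside the rise of its receptor chain. Ctf2 and Il27 were listed at 0 in every library, and Il31 was not analysed here.

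Of the receptors and shedding proteases 1 of 3 tested rose (17.5% of all tested genes) and none fell (9.21%), with a median of 0.29, none being lower at an unadjusted p under 0.05 or by voom either. Adam17, the protease that releases soluble IL-6 receptor from cells, was at 15.0, 14.2 and 16.0 FPKM in NC and at 21.5, 24.4 and 24.3 FPKM with the antagomiR (log2 fold change 0.60, SE 0.07, limma adjusted p = 0.00126). Adam10, a related sheddase, was at 17.9 ± 2.59 and 20.3 ± 0.884 FPKM (SD, n = 3) and was not called. Il27ra had a log2 fold change of 0.29 that was called only without NC replicate 3 (0.39). It entered the test only through its antagomiR values, so that call is given without a p and adds no support.

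Of the JAK-STAT and SHP2 transducers 5 of 10 tested rose (17.5% of all tested genes) and none fell (9.21%), with a median of 0.21. Jak2, a kinase bound to gp130, changed most among them, from 5.36, 5.67 and 6.03 FPKM to 15.9, 16.9 and 17.8 FPKM (log2 fold change 1.42, SE 0.07, limma adjusted p = 4.46e-05). Stat3 went from 29.5, 29.1 and 30.9 FPKM to 41.9, 43.1 and 43.0 FPKM (log2 fold change 0.50, SE 0.05, limma adjusted p = 0.000504). The smaller rises of Jak1, at 0.35, and Stat5a, at 0.39, and that of the adaptor gene Grb2, at 0.20, each lost the call in some fits without 1 library: Jak1 without antagomiR replicate 2 or 3, Stat5a without NC replicate 2 or any antagomiR replicate, and Grb2 in all such fits but that without NC replicate 3. Grb2 also lost it with median-ratio scaling (0.13, adjusted p = 0.148), without a filter and without the trend, and Stat5a with quantile normalization (0.24, adjusted p = 0.108). With the replicate block both Grb2 and Stat5a lost the call (limma adjusted p = 0.0932 and 0.0657). Ptpn11, which encodes SHP2, was at 35.5 ± 0.357 and 38.0 ± 0.292 FPKM and was not called.

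Inhibitors of the pathway showed a divided picture, with 6 of 12 tested higher (17.5% of all tested genes), none lower (9.21%) and a median of 0.33. For transducers and inhibitors too, no gene was lower at an unadjusted p under 0.05 (13.3% of all tested genes) or by voom (9.71%). The risen genes were the inducible SOCS genes Socs1, at 1.15, Socs2, at 0.63, and Cish, at 1.37, and the phosphatase genes Ptpn1, at 0.67, Ptpn2, at 0.47, and Ptpn6, at 2.13. Socs1 went from 0.544, 0.873 and 1.04 FPKM to 2.76, 3.41 and 2.91 FPKM, with no overlap, but it entered the test only through its antagomiR values, so its call is given without a p and adds no support to the count. Socs4, Socs5, Socs6 and Socs7 had log2 fold changes between -0.06 and 0.07 and were not called. Ptpn6, a phosphatase of blood cells, was at 2.78, 2.83 and 12.5 FPKM in NC and at 23.8, 23.9 and 25.4 FPKM with the antagomiR, with NC replicate 3 apart. It was not called when NC replicate 2 was left out (adjusted p = 0.0538), nor without antagomiR replicate 1, 2 or 3 (0.0516, 0.0514 and 0.0542), and it was called in the other fits run.

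Reported STAT3 target genes rose in 11 of 21 tested (17.5% of all tested genes) and fell in 1 (9.21%), with a median of 0.39. Lbp, the lipopolysaccharide-binding acute phase protein, was at 3.74, 3.61 and 4.39 FPKM in NC and at 22.1, 22.7 and 23.4 FPKM with the antagomiR (log2 fold change 2.27, SE 0.08, limma adjusted p = 6.94e-06). Cebpd, a transcription factor of the acute phase response, went from 26.4 ± 4.31 to 115 ± 2.29 FPKM, the NF-kB cofactor gene Bcl3 from 1.25 ± 0.645 to 10.5 ± 0.29 FPKM and the adhesion molecule gene Icam1 from 46.4 ± 4.5 to 155 ± 10.3 FPKM (SD, n = 3). Pim3, a survival kinase gene, fell from 16.7 ± 1.28 to 12.2 ± 0.495 FPKM (limma adjusted p = 0.00501). Myc and Mcl1, at 0.09 and 0.06, were not called. Several of these genes, Icam1 and Bcl3 among them, are also targets of NF-kB, so the list does not isolate STAT3. Birc5 lost its call without any of the antagomiR replicates, Hif1a and Pim1 in several fits, and Junb gained one without NC replicate 3 (adjusted p = 0.00057) and by voom (adjusted p = 0.0433).

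Of the genes for proteins that control the stability of IL6 mRNA, 3 of 9 tested were higher (17.5% of all tested genes) and 1 lower (9.21%), with a median of 0.07. Zc3h12a, which encodes the ribonuclease Regnase-1 that degrades IL6 mRNA, went from 5.09, 5.56 and 5.45 FPKM to 41.1, 43.9 and 44.9 FPKM (log2 fold change 2.80, SE 0.06, limma adjusted p = 1.17e-06). Its rise was thus measured in the same libraries in which Il6 itself was higher. Zfp36l1, an mRNA decay factor, rose from 38.7 ± 3.09 to 94.4 ± 0.604 FPKM, while its relative Zfp36, tristetraprolin, fell from 48.8 ± 2.22 to 34.5 ± 0.551 FPKM (SD, n = 3, limma adjusted p = 0.00079). The rise of Zc3h12c, at 0.29, lost its call in every fit without 1 library except that without NC replicate 3. Zc3h12c also lost it with quantile normalization (0.13, adjusted p = 0.198) and with the replicate block (limma adjusted p = 0.0755).

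**Figure D4:**
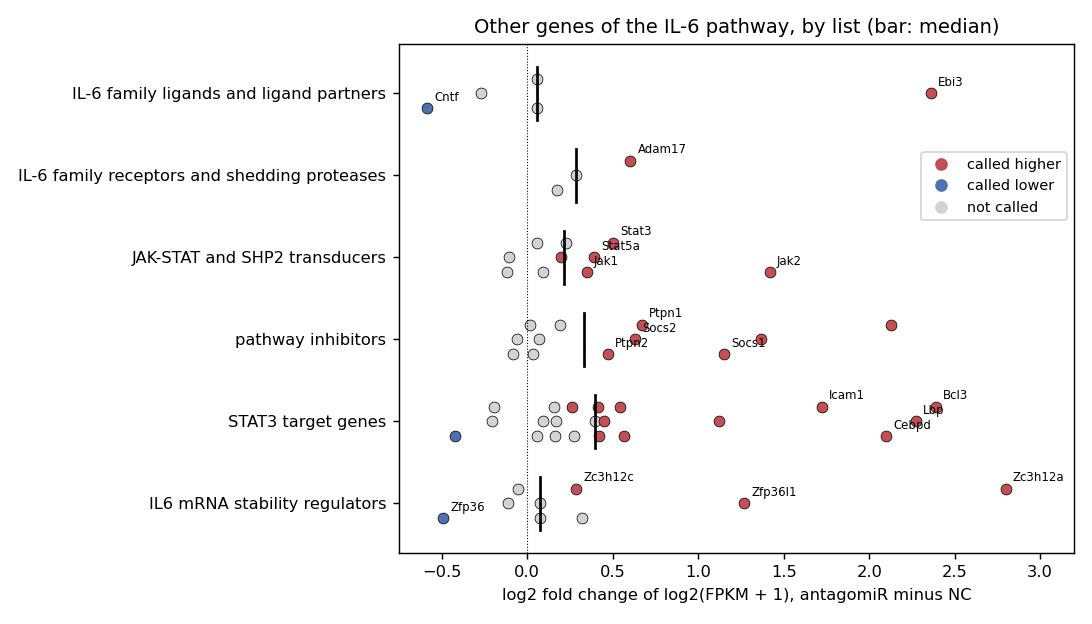
Log2 fold change of log2(FPKM + 1), antagomiR minus NC, of the 60 tested genes in 6 lists of the IL-6 pathway (a point per gene, red if called higher, blue if lower, grey if not called, black bar for the list's median). Called genes lie mostly to the right, with Zc3h12a the farthest at 2.80, and Cntf, Pim3 and Zfp36 are the 3 called lower.

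The genes with profiles most like those of Il6, Socs3 and Osmr were found by the root mean square difference of log2(FPKM + 1) over the 6 libraries, after the NC mean of each gene was subtracted. Nearest to Il6 were the chemokine gene Ccl5 (0.11), Mir146a (0.11), the matrix gene Fbln1 (0.11) and Cebpd (0.14). Ccl5 was at 0, 0 and 0.127 FPKM in NC and at 3.38, 3.93 and 3.07 FPKM with the antagomiR, and the short Mir146a precursor feature was listed at 0 in all NC libraries. Nearest to Socs3 were Lrrc32 (0.06), which encodes a protein that anchors latent TGF-beta, the dipeptidase gene Dpep1 (0.08), the TNF receptor adaptor gene Traf1 (0.09) and a gene without a symbol (0.09). Lrrc32 was at 5.08, 5.69 and 7.08 FPKM in NC, with a mean of 20.3 FPKM after the antagomiR, and like Socs3 it was highest among the controls in NC replicate 3. Nearest to Osmr were Akr1c14 (0.06), a gene without a symbol (0.07), Cyp1b1 (0.10) and the fibroblast receptor gene Pdgfra (0.10). Pdgfra went from 9.59, 8.79 and 7.22 FPKM to 27.7, 27.5 and 27.4 FPKM, and like Osmr it was lowest in NC replicate 3. Ccl5, Mir146a, Traf1 and the gene without a symbol nearest to Socs3 had NC means under 1 FPKM, as Il6 did. They passed the filter only through their antagomiR values, and log2(FPKM + 1) understates changes at such levels. With 6 libraries in 2 groups, the measure takes in little beyond the size of the group difference and the scatter of the replicates, and the values are a description.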

How the data were processed

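Polyadenylated RNA was sequenced as paired reads of 150 bp, per the labels' protocols. Per the submitters' processing notes, the tools were FastQC and cutadapt, HISAT2 with mRatBN7.2, HTSeq and edgeR, without versions. Neither annotation nor strand setting is given in the sources used here. Deposited values are FPKM, computed by the authors, 1 column per library, and columns were matched to samples by name. Library totals and fragments were recovered from the FPKM values as whole numbers within 0.01, for 100% of 20134 genes above 0. The recovery was tested on simulated data, where the fragments of 94.8% of 2000 genes were recovered exactly.

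Genes whose mean reached 1 FPKM were tested with limma 3.58.1 in R 4.3.3 (trend, two-sided, Benjamini-Hochberg over 12024 genes, threshold 0.05). The fit was tested on simulated data. Replicates differed by more than sampling noise (chi-square per degree of freedom 3.4 to 29.7). The highest values were those of NC replicate 3 with NC replicate 1 (29.7) and NC replicate 2 (22.1), beside 6.39 between NC replicates 1 and 2. Mitochondrial fragments were 3.52% of the total in NC replicate 3, 4.46% and 4.35% in NC replicates 1 and 2, and 4.05% to 4.46% with the antagomiR.

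The genes, lists and rules were chosen with earlier results of these data known. Named genes were all members, up to 4 genes of each pathway list with the smallest p, and the 4 nearest profiles to Il6, Socs3 and Osmr. A gene this rule names is not reported here. Genes named beside these were chosen after their values were seen. Alternatives were other pseudocounts, filters and scalings, a replicate block, no trend and leaving out each library, and voom on recovered fragments was chosen after seeing the data.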

Additional observations from a re-analysis of the deposited data

How the results depend on the processing

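The 5 higher calls among the IL-6 family genes were the count in all fits with another pseudocount, scaling, trend or a lower filter, by voom and with the replicate block. A filter at 5 FPKM left 2, since it removed Il6, Lifr and Socs3 from the test, and fits without 1 library gave 4 to 6. The number called lower was 0 in every fit. Pathway genes called higher numbered 19 to 31 without 1 library and those called lower 3 to 4, or 5 with quantile normalization, which added Nfil3 and Tyk2. Over all genes, 3216 calls became 1883 to 4862 without 1 library, the highest without NC replicate 3, and 2380 with the replicate block. Quantile normalization moved the median of all genes from 0.06 to -0.05, and there Il6 was at 1.91, Osmr and Socs3 at 1.53, Lifr at 0.78 and Il6st at 0.39, all still called.

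For the tested family genes, 115 of 124 values from other settings had the same sign and the same outcome of the test. Lif reversed with quantile normalization (-0.026). Il11ra1 reversed with median-ratio scaling (-0.047) and quantile normalization (-0.069), and ranged from -0.08 to 0.101 without 1 library. Without 1 library the difference in share was -0.233 to 0.055 percentage points for Il11 and -0.193 to 0.156 for Il6r. The cause was not tested. Equal replicate numbers are not said to mark a shared preparation, and deviations of equal numbers correlated at -0.16, -0.06 and -0.04. The replicate block changed no call among the family genes, and with it 23 pathway genes were called higher, beside 27 in the main fit. Depth limits Il11 most among the family genes, and its overlap with Tmem238 limits it too. A planned search for motifs in receptor proteins was not run, since no protein sequences were used here.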
